A study of Mus musculus with 20 samples.

Results

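The region by treatment interaction asks, gene by gene, whether the difference between tissue beside a stroke infarct and the matching tissue of the other hemisphere depends on the drug the mouse received. All 20 libraries of the series entered it. For each of 10 animals, identified by treatment and replicate number, the log2 CPM (counts scaled to library size) of the contralateral library was subtracted from that of the peri-infarct library, and the 5 differences of animals given hydroxypropyl-β-cyclodextrin (HPBCD) were compared with the 5 of animals given vehicle. A positive interaction means that the peri-infarct minus contralateral difference was more positive in HPBCD animals. No gene was chosen for the test by its region or treatment difference, and 16758 of the 46078 genes listed passed the filter on low counts and were tested. The gene lists and some of the genes named below were chosen with results of these data known.

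The mice were wild-type C57BL/6J animals aged 18 months that underwent DH stroke, in which occlusion of the distal middle cerebral artery is combined with hypoxia. Vehicle animals received PBS and HPBCD animals received 4 g/kg HPBCD, both under the skin 3 times per week for 6 weeks from 1 week after stroke, and tissue was taken 7 weeks after stroke. The 4 groups of 5 libraries were vehicle peri-infarct, vehicle contralateral, HPBCD peri-infarct and HPBCD contralateral. Every animal had a stroke, so the contralateral tissue is that of an injured brain, and the peri-infarct block was dissected next to the infarct once that had been removed. Treatment names are those of the sample labels, and no gene in the counts serves to check which animals received the drug, so every direction between treatments holds only as labelled and would reverse if the labels were exchanged.

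HPBCD is a ring of glucose units that takes up cholesterol and other lipids in its cavity. Tissue around a cortical infarct is known for reactive astrocytes that form a glial border, for microglia and macrophages that clear myelin and lipid debris, for fibroblasts that deposit collagen-rich scar, and for loss of neuronal transcripts. Bulk RNA adds up the cells in the dissected block, so fewer cells of a type and less RNA per cell cannot be told apart.

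Gene counts per library ranged from 14445021 to 22171627. Several contralateral libraries stood apart. In HPBCD animal 4 the contralateral library had the lowest depth, 9.50% of its read pairs fell in no gene and 8.03% were ambiguous, whereas the next highest shares among the other libraries were 5.86% and 4.16%. In vehicle animal 1 the contralateral library carried striatal RNA: Rgs9, a signalling regulator of striatal neurons, was at 224, 7.96, 6.88, 8.81 and 7.53 CPM in the contralateral libraries of vehicle animals 1 to 5 and at 5.54, 9.33, 6.21, 10.7 and 4.68 CPM in those of HPBCD animals 1 to 5. In HPBCD animal 3 it carried choroid plexus RNA, with genes of that tissue summing to 3.35, 7.06, 649.8, 7.00 and 1.81 CPM in the contralateral libraries of HPBCD animals 1 to 5 and to 1.97 to 15.9 CPM in those of vehicle animals. Genes of 3 other tissues or cell types were each high in 1 vehicle contralateral library. T lymphocyte genes summed to 57.2 CPM in that of vehicle animal 1 and to 2.22 to 3.93 CPM in the other vehicle animals, fibroblast and meningeal genes to 546.4 CPM in that of vehicle animal 2 (118 to 275.2 CPM in the others), and ependymal genes to 56.6 CPM in that of vehicle animal 3 (11.7 to 18.6 CPM in the others). Counts are therefore also given with vehicle animal 1 and HPBCD animals 3 and 4 left out together, and without each animal singly, vehicle animals 2 and 3 among them.

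The region difference was wider in the animals labelled HPBCD. Taking the median over genes of the absolute log2 difference within an animal, vehicle animals 1 to 5 stood at 0.262, 0.257, 0.369, 0.252 and 0.292, and HPBCD animals 1 to 5 at 0.463, 0.388, 0.469, 0.639 and 0.436. The lowest HPBCD animal was above the highest vehicle animal. The means were 0.286 ± 0.049 and 0.479 ± 0.095 (SD, n = 5 each), a gap of 0.193 (exact permutation test over 252 splits, two-sided p = 0.0079, the smallest the design allows). Between 1544 and 2797 genes differed by more than 2-fold in single vehicle animals, and between 3359 and 5553 in single HPBCD animals. With vehicle animal 1 and HPBCD animal 4 left out the gap was 0.147 and the 2 treatments still did not overlap (exact permutation p = 0.0286, the smallest 4 against 4 allows). With HPBCD animal 3 left out as well it was 0.137, still with no overlap, and 4 animals against 3 cannot pass the threshold (exact permutation p = 0.0571, the smallest they allow).

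**Figure D1:**
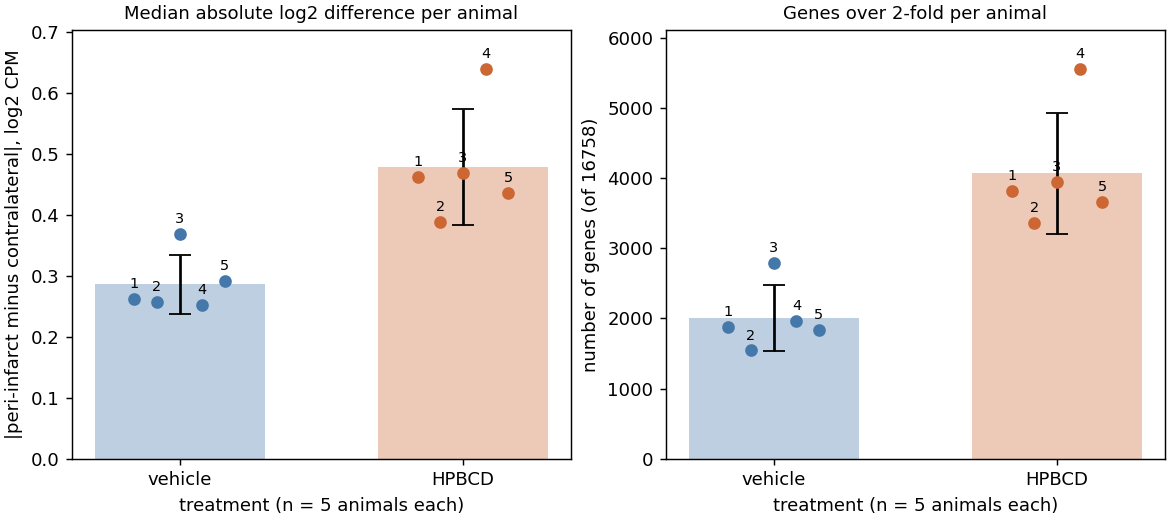
Left, median absolute peri-infarct minus contralateral log2 CPM difference over 16758 genes for each animal, and right, the number of genes whose difference exceeds 2-fold in that animal. Points are animals with their replicate number, bars are means of 5 and error bars are SD; every HPBCD animal (0.388 to 0.639) lies above every vehicle animal (0.252 to 0.369).

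The interaction passed an adjusted p-value of 0.05 for 1830 genes, 10.9% of those tested, by the quasi-likelihood test of edgeR with the animal as a block. In 1008 (6.02%) the region difference was more positive in HPBCD and in 822 (4.91%) it was more negative. The genes called more positive had a median region difference of 0.44 (log2) in vehicle and 1.43 in HPBCD, and those called more negative had -0.25 in vehicle and -0.86 in HPBCD. Their mean difference was farther from 0 in HPBCD than in vehicle for 1823 of the 1830. Within a treatment, 3640 genes (21.7%) differed between regions in vehicle, 13% of those tested being higher beside the infarct and 8.74% lower. In HPBCD 9713 (58%) differed, 31.1% higher and 26.9% lower. Of the 1830, 795 passed in both treatments, 1028 in HPBCD alone, 4 in vehicle alone and 3 in neither. The 5 HPBCD differences lay wholly above or below the 5 vehicle differences for 1256 of the 1830, against 10% of all genes tested (5.57% above and 4.43% below). At an unadjusted p under 0.05 stood 30.7% of all genes.

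The called genes differed by treatment mainly in peri-infarct tissue. For 1734 of them the log2 gap between treatments was larger in peri-infarct than in contralateral libraries, against 12423 of all 16758 genes. The 5 HPBCD and 5 vehicle CPM values did not overlap in peri-infarct tissue for 894 called genes, against 13.1% of all genes, and in contralateral tissue for 73, against 1.43%. The lower-going genes were more abundant, with a median of 87.5 CPM over the 20 libraries against 18.4 CPM for the higher-going genes and 16.5 CPM for all genes tested.

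These calls sit close to the threshold, and their number depends on single animals. The smallest adjusted p-value was 0.0192. Leaving out 1 animal gave 392 (HPBCD animal 3) to 2282 calls (vehicle animal 3), and the count fell by more than 1.5 times also without vehicle animals 1 (394), 2 (511) and 5 (762) and HPBCD animals 4 (756) and 5 (767). With vehicle animal 1 and HPBCD animal 4 both left out, edgeR called 0 genes (3396 at an unadjusted p under 0.05) and limma on the per-animal differences called 1 (3529 unadjusted), while all 1830 interactions kept their sign. With HPBCD animal 3 left out as well, edgeR again called 0 (2529 unadjusted) and all 1830 kept their sign. The split of 1008 more positive and 822 more negative became 932 and 2061 when a trend with GC content and gene length was removed without centring, which moved the median interaction of all genes from 0.01 to -0.10, and 1141 and 922 with the trend centred. No gene passed a test against a minimum change of 2-fold (495 at an unadjusted p under 0.05), and 581 called genes had a fitted change of at least that size, 476 more positive and 105 more negative.

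**Figure D2:**
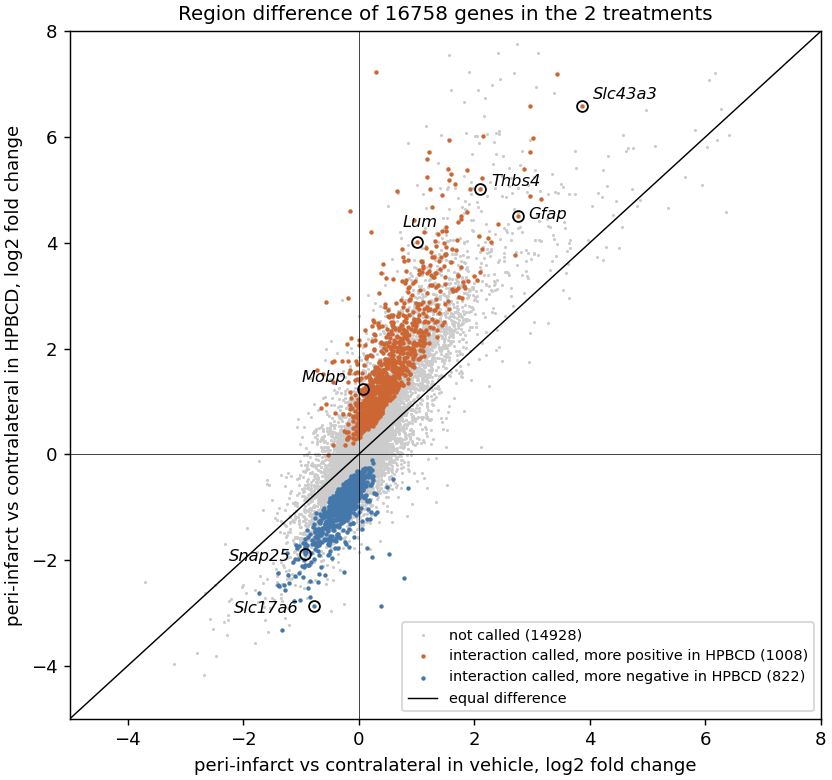
Each point is 1 of 16758 genes, with the fitted peri-infarct versus contralateral log2 fold change in vehicle on the x axis and in HPBCD on the y axis; 12 genes lie outside the axes. Orange (1008) and blue (822) points passed the interaction test and, in 1823 of 1830, lie farther from 0 in HPBCD than in vehicle.

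Taking genes with at least 5 CPM, an adjusted p under 0.05 and no overlap of the per-animal differences (1063 genes), the 10 most positive were Lum, Cd109, Thbs4, Lrrn4cl, Cyp1b1, Slc43a3, Col3a1, Dcn, Thbd and Cxcr4, with log2 interactions from 3.01 down to 2.52. Genes called at lower levels, such as Ltbp2 (3.99) and Cd79a (3.44), had wider fitted interactions. Lum encodes lumican, a small proteoglycan that binds collagen fibrils (chr10:97565128-97572703, plus strand, GRCm38). Its per-animal differences were 1.02, -1.23, 0.55, 2.95 and 1.48 in vehicle animals 1 to 5 and 3.57, 4.46, 4.07, 4.26 and 3.37 in HPBCD animals 1 to 5. Vehicle animal 2 was below 0 and the highest vehicle animal stayed below the lowest HPBCD animal. The fitted interaction was 3.01 ± 0.65 (log2, SE; edgeR adjusted p = 0.0231).

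Thbs4, an extracellular matrix thrombospondin (chr13:92751590-92794818, minus strand), was at 44.4, 14.5, 42.5, 34.04 and 83.1 CPM in peri-infarct and 16.8, 3.44, 20.9, 3.59 and 10.2 CPM in contralateral tissue of vehicle animals. In HPBCD animals it was at 88.5, 111, 83.7, 112 and 114 CPM in peri-infarct and 3.30, 1.01, 7.18, 3.27 and 2.37 CPM in contralateral tissue. The peri-infarct ranges did not overlap, contralateral levels ran lower in HPBCD with overlap, and the interaction was 2.91 ± 0.56 (edgeR adjusted p = 0.0199). Thbd, the endothelial thrombin receptor thrombomodulin, had per-animal differences of 0.98, -1.32, 1.24, 2.31 and 0.40 in vehicle and 3.18, 3.25, 2.87, 3.82 and 3.27 in HPBCD. Its mean moved from 0.75, which did not pass the region test in vehicle (adjusted p = 0.176), to 3.28 in HPBCD. Cxcr4, the receptor of the chemokine CXCL12, differed between regions by 2.87 in vehicle and 5.39 in HPBCD, and Cd109, a surface protein that binds TGF-beta, by 3.02 and 5.98. Slc43a3, a purine base transporter, had 3, 2, 0, 2 and 4 counts in the HPBCD contralateral libraries, at or close to the floor of 3 counts, so the size of its interaction (2.72 ± 0.65) depends on very few reads. The remaining members of these 10 had interactions of 2.86 (Lrrn4cl), 2.73 (Cyp1b1, a cytochrome P450), 2.70 (Col3a1, type III collagen) and 2.67 (Dcn, decorin). The adjusted p-values of Cyp1b1, Slc43a3 and Col3a1 were over 0.05 in 6, 5 and 7 of the 10 fits that left out 1 animal, and without the animal block those of Slc43a3 and Col3a1 were 0.0852 and 0.0622.

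The 10 most negative interactions were those of Slc17a6, Igfn1, Plcxd2, Ankrd34c, Dkkl1, Fam19a2, Car10, Ntng1, Pla2g4e and Emx1, from -2.08 to -1.22. Slc17a6 encodes the vesicular glutamate transporter VGLUT2 (chr7:51622006-51671119, plus strand). It was at 14.6, 18.6, 10.5, 15.4 and 11.3 CPM in peri-infarct and 15.6, 20.8, 23.2, 29.97 and 32.8 CPM in contralateral libraries of vehicle animals. In HPBCD animals the values were 8.29, 2.13, 5.38, 4.14 and 5.12 CPM in peri-infarct and 33.8, 43.5, 32.7, 33.9 and 31.5 CPM in contralateral tissue. All 5 HPBCD peri-infarct libraries were below all 5 vehicle peri-infarct libraries, while the contralateral libraries overlapped, and the interaction was -2.08 ± 0.39 (edgeR adjusted p = 0.0196). Emx1, a transcription factor of cortical excitatory neurons, had per-animal differences of -0.36, -0.996, -1.48, -0.82 and -0.75 in vehicle and -1.82, -2.10, -1.79, -2.81 and -2.01 in HPBCD. Fam19a2, a secreted brain peptide gene, and Ntng1, which encodes the axonal protein netrin-G1, had mean differences on the other side of 0 in vehicle (0.05 and 0.21, adjusted p = 0.896 and 0.571) and fell between regions in HPBCD (-1.42 and -1.09). Car10, a carbonic anhydrase-related protein that binds neurexins, differed by -0.54 in vehicle and -1.91 in HPBCD. The other 5 interactions were -1.86 (Igfn1), -1.70 (Plcxd2), -1.64 (Ankrd34c), -1.50 (Dkkl1) and -1.26 (Pla2g4e, a phospholipase A2).

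**Figure D3:**
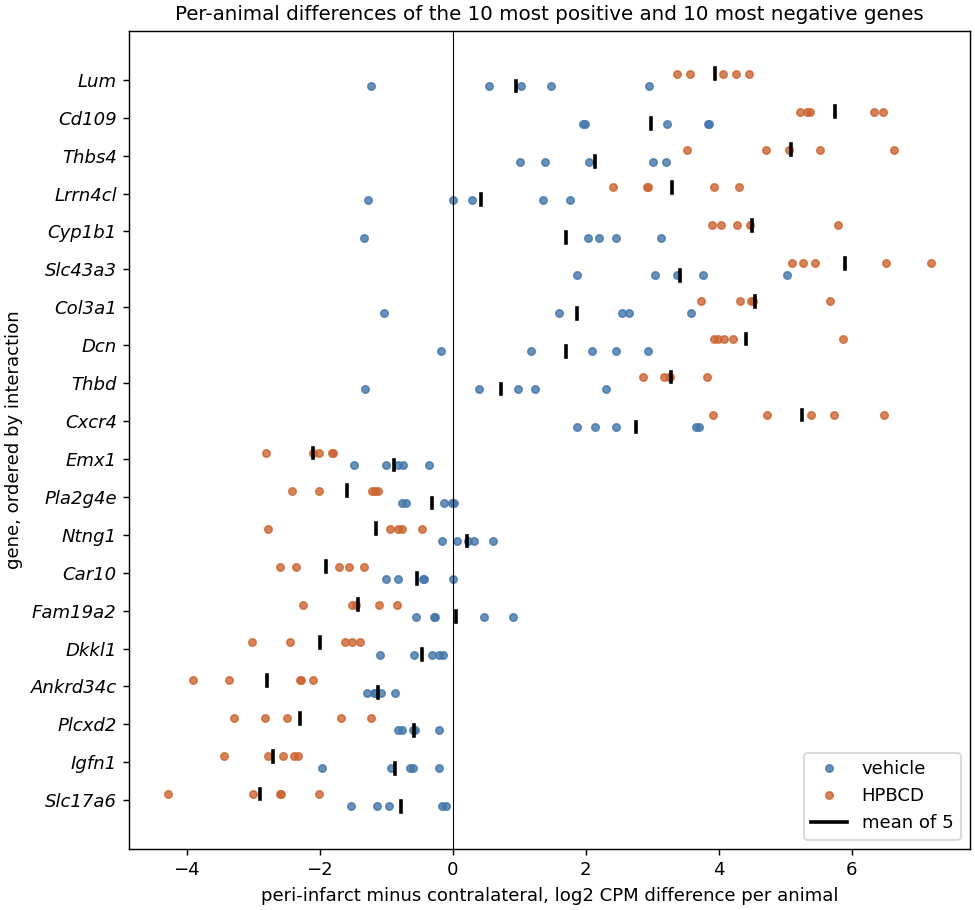
Peri-infarct minus contralateral log2 CPM difference of each animal (blue vehicle, orange HPBCD, black tick the mean of 5) for the 10 genes with the most positive and the 10 with the most negative interaction under the naming rule. The treatments do not overlap in any of these genes, since that was part of the rule, and vehicle animal 2 lies lowest for Lum, Cyp1b1, Col3a1, Dcn and Thbd.

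The 5 genes with the smallest interaction p-values were Mgst3 (-0.79 ± 0.10), a microsomal glutathione S-transferase, Ccn1 (1.42 ± 0.18), a matricellular protein, Bicc1 (2.07 ± 0.27), an RNA-binding protein, Plpp2 (1.88 ± 0.26), a lipid phosphatase, and Dnaic2 (2.35 ± 0.33), a dynein chain of motile cilia. All had an edgeR adjusted p of 0.0192 and stayed under 0.05 in each of the 10 fits that left out 1 animal.

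Most reactive astrocyte genes were higher in peri-infarct tissue, 18 of 20 passing the region test in vehicle and all 20 in HPBCD (beside 13% and 31.1% of all genes). Of 20 such genes tested, 8 passed the interaction test, all more positive, beside 6.02% of all genes. The median region difference of the list was 2.43 (log2) in vehicle and 4.17 in HPBCD, beside 0.04 and 0.03 over all genes. Gfap, the intermediate filament of astrocytes (chr11:102887336-102900912, minus strand), was at 1171, 570.5, 2828, 1914 and 1870 CPM in peri-infarct and 238, 207, 309, 154 and 218 CPM in contralateral tissue of vehicle animals. In HPBCD animals it was at 3340, 2497, 2907, 4769 and 3653 CPM in peri-infarct and 144, 114, 166, 167 and 151 CPM in contralateral tissue. HPBCD peri-infarct libraries were the higher, with overlap, contralateral libraries ran lower in HPBCD, and the region difference went from 2.75 to 4.51 (interaction 1.76 ± 0.34, edgeR adjusted p = 0.0199). Cd44, a hyaluronan receptor, had an interaction of 1.66 ± 0.33 and Tm4sf1, a tetraspanin-like membrane protein, one of 1.46 ± 0.25. Leaving out 1 animal gave 4 (without vehicle animal 1) to 12 called members.

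The counts in smaller lists are to be read against the same shares, 6.02% more positive, 4.91% more negative and 10.9% either way. Among 12 genes of homeostatic astrocytes only Gjb6, the gap junction protein connexin 30, was called (0.87 ± 0.25, edgeR adjusted p = 0.0441). The list median was 0.06 and changed sign in the GC and length correction and without vehicle animal 2. Of the 12 interactions 8 were positive. Aqp4, the astrocytic water channel, differed between regions by 1.47 in vehicle and 2.37 in HPBCD, with an interaction p that missed the threshold (edgeR adjusted p = 0.0615). Slc6a11 (-0.51, edgeR adjusted p = 0.0678), Gpc5 (-0.38), Slc1a2 (-0.33) and Aldoc (-0.12) had negative interactions that also missed the threshold.

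The Gfap promoter is shown because its window holds matches to 2 of the motifs searched and the gene was called. The window runs from 250 bases before to 50 bases after the annotated start (RefSeq, GRCm38.p6, chr11:102897151-102897450, minus strand, 5′ to 3′), with the STAT motif TTCCNGGAA near the start site and a match to the sterol regulatory element TCACNCCAC on the other strand in capitals.

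Gfap: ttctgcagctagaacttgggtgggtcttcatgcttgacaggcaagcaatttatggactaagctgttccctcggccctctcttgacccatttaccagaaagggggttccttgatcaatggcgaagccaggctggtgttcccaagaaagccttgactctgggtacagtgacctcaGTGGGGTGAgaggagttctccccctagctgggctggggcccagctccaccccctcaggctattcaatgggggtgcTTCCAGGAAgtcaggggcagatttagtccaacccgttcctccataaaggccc

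Of the 12146 tested genes with a promoter, 1.48% held the STAT motif in such a window (1.35% of all 27025 promoters), as did 12 of 759 genes called more positive (1.58%) and 4 of 627 called more negative (0.638%).

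Genes of fibroblasts and meninges had a list median of 2.22 (log2). Of 13 tested, 7 were called, all more positive, beside 6.02% of all genes. The median region difference was 1.01 in vehicle, where 3 passed, and 3.08 in HPBCD, where all 13 passed (beside 13% and 31.1% of all genes). Averaged over the list, the differences of vehicle animals 1 to 5 were 1.91, -1.47, 1.37, 1.92 and 1.16 and those of HPBCD animals 1 to 5 were 2.84, 3.29, 2.82, 4.30 and 2.67. Vehicle animal 2 was the only animal below 0 and HPBCD animal 4 was the highest. Over the fits that left out 1 animal, 1 (without HPBCD animal 3) to 9 members were called. Dcn, a proteoglycan that binds collagen (chr10:97479609-97518143, plus strand), was at 16.02, 17.8, 14.1, 88.4 and 26.9 CPM in vehicle peri-infarct and 3.69, 19.96, 6.17, 11.5 and 4.83 CPM in vehicle contralateral libraries. In HPBCD it was at 166, 77.2, 267, 329 and 165 CPM in peri-infarct and 9.74, 4.74, 17.4, 5.56 and 8.80 CPM in contralateral tissue. Only the lowest HPBCD peri-infarct library fell within the vehicle range, and the interaction was 2.67 ± 0.56 (edgeR adjusted p = 0.022). Col1a2, a chain of type I collagen, had per-animal differences of 2.41, -1.41, 2.14, 2.20 and 0.73 in vehicle and 3.40, 3.52, 3.20, 4.85 and 3.73 in HPBCD. Its interaction was 2.46 ± 0.65 (edgeR adjusted p = 0.0368) and that of Fn1, fibronectin, 1.76 ± 0.44. The summed level of the list was 185 to 685 CPM in vehicle peri-infarct, 908 to 2127 CPM in HPBCD peri-infarct, 118 to 546 CPM in vehicle contralateral and 134 to 429 CPM in HPBCD contralateral libraries.

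Of 8 pericyte and smooth muscle genes, 2 were called, the pericyte-enriched vitronectin gene Vtn (1.06 ± 0.23) and Pdgfrb, the pericyte PDGF receptor (0.89 ± 0.22). In that list 6 of the 8 interactions were positive. Rgs5 (-0.002), Abcc9 (-0.15) and Kcnj8 (0.26) were far from the threshold (edgeR adjusted p = 0.993, 0.727 and 0.541). Of 11 endothelial genes, 2 were called, Tjp1, a tight junction scaffold (0.51 ± 0.13), and Slc2a1, the glucose transporter GLUT1 (0.33 ± 0.09), and 7 of the 11 interactions were positive, with a list median of 0.22 (0.15 without HPBCD animal 5). Mfsd2a, Slco1c1, Ly6c1 and Flt1 had negative interactions (-0.36, -0.17, -0.14 and -0.01) that missed the threshold. Among 8 genes of perivascular macrophages, 2 were called, the scavenger receptor gene Stab1 (1.36 ± 0.38) and Cbr2 (2.14 ± 0.59), but 0 were called in 7 of the 10 fits that left out 1 animal (without vehicle animal 1, 2 or 5 or HPBCD animal 1, 2, 3 or 4). Such fits called 0 to 3 of the pericyte and smooth muscle genes and 0 to 4 of the endothelial genes.

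Genes of ciliated ependyma, which lines the ventricles, had a list median of 2.14, with 5 of 12 called, beside 6.02% of all genes, and all 12 positive. Foxj1, the regulator of motile cilia (chr11:116330704-116335399, minus strand), was at 29.5, 17.1, 22.1, 14.8 and 28.6 CPM in vehicle peri-infarct and 8.58, 4.91, 16.5, 1.96 and 5.76 CPM in vehicle contralateral tissue. HPBCD animals had 54.7, 41.7, 80.9, 62.1 and 63.7 CPM in peri-infarct and 3.55, 4.995, 7.80, 5.63 and 4.23 CPM in contralateral tissue. The peri-infarct libraries of the 2 treatments did not overlap, while the contralateral libraries did, and the interaction was 1.77 ± 0.37 (edgeR adjusted p = 0.0225). The axonemal genes Rsph1 and Tekt4 had interactions of 1.78 and 2.71, Tekt4 at a low level. List means were 2.30, 2.68, -0.98, 0.72 and 2.65 in vehicle animals 1 to 5 and 3.67, 3.57, 4.14, 3.69 and 4.07 in HPBCD animals 1 to 5, with vehicle animal 3 below 0. Over the fits that left out 1 animal, 1 (without vehicle animal 1 or HPBCD animal 3) to 5 members were called, and the list median was lowest, 1.36, without vehicle animal 3.

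Markers of deeper structures were present in the same libraries. By edgeR 0 of 11 striatal genes were called (0 at an unadjusted p under 0.05), yet their list means were -1.73, 2.33, 3.87, 2.72 and 0.998 in vehicle animals 1 to 5 and 3.42, 1.60, 3.29, 3.27 and 3.74 in HPBCD animals 1 to 5. Vehicle animal 1 alone was negative, and without it the list median fell from 1.31 to 0.55. Rgs9 in peri-infarct tissue was at 58.4, 60.3, 150.0, 74.3 and 22.7 CPM in vehicle and 114, 44.1, 86.96, 119 and 126 CPM in HPBCD, so striatal RNA was present in every peri-infarct library. Penk, the enkephalin precursor, differed between regions by 1.57 in vehicle and 3.14 in HPBCD (interaction edgeR adjusted p = 0.218). The summed level of the striatal list was 472 to 2809 CPM in vehicle peri-infarct, 290.4 to 4377 CPM in vehicle contralateral, 994 to 2723 CPM in HPBCD peri-infarct and 305 to 346 CPM in HPBCD contralateral libraries. Choroid plexus genes (0 of 8 called by edgeR, 0 at an unadjusted p under 0.05) summed to 6.51 to 81.7 CPM in vehicle and 28.7 to 704 CPM in HPBCD peri-infarct libraries, beside 1.97 to 15.9 CPM and 1.81 to 649.8 CPM in the contralateral libraries, where HPBCD animal 3 held the highest level in both regions. Ependymal genes summed to 30.6 to 77.2 CPM in vehicle and 119 to 232 CPM in HPBCD peri-infarct libraries, beside 11.7 to 56.6 CPM and 11.8 to 17.2 CPM in the contralateral libraries. Vehicle animal 3 held the highest of these contralateral sums (56.6 CPM), above its own peri-infarct library (44.8 CPM). The part of tissue content in the interaction was not tested.

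Averaged over the list, myelin genes stood higher beside the infarct in every HPBCD animal and on either side of 0 in vehicle animals. Of 11 oligodendrocyte and myelin genes tested, 10 passed, all more positive, beside 6.02% of all genes tested. Their median region difference was 0.20 in vehicle, where 1 passed, and 1.19 in HPBCD, where all 11 passed (beside 13% and 31.1% of all genes). Mobp, a myelin-associated basic protein gene (chr9:120149707-120181484, plus strand), was at 1652, 1092, 2106, 1405 and 2549 CPM in peri-infarct and 2082, 1197, 2259, 836 and 2214 CPM in contralateral tissue of vehicle animals. In HPBCD animals it was at 2641, 2502, 2843, 3660 and 3276 CPM in peri-infarct and 1297, 1046, 1429, 1327 and 1247 CPM in contralateral tissue. In vehicle 2 animals were higher and 3 lower beside the infarct, whereas all 5 HPBCD animals were higher, and the ranges of the treatments overlapped within each region. The interaction was 1.15 ± 0.20 (edgeR adjusted p = 0.0192). Mag, a myelin glycoprotein, had per-animal differences of -0.46, 0.11, 0.12, 0.60 and 0.46 in vehicle and 1.15, 1.04, 0.88, 1.16 and 1.41 in HPBCD, and Ermn, a cytoskeletal protein of myelinating cells, an interaction of 1.12 ± 0.21. The list means were -0.34, 0.22, 0.06, 0.63 and 0.58 in vehicle animals and 1.15, 1.04, 0.90, 1.31 and 1.53 in HPBCD animals, without overlap. Contralateral sums of the list were 11929, 6401, 12248, 4766 and 11817 CPM in vehicle animals 1 to 5 and 5891 to 7387 CPM in HPBCD animals. Peri-infarct sums were 6402 to 15551 CPM in vehicle and 13257 to 20320 CPM in HPBCD. Within either region, 0 of the 11 members had CPM values without overlap between treatments. Between 6 and 10 members were called when 1 animal was left out, and 3 without the animal block, with a median of 0.80 when vehicle animal 1 and HPBCD animal 4 were both left out. White matter runs through the striatum and beneath the cortex, and the share of each in the blocks was not measured.

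Of 9 genes of oligodendrocyte precursors and early oligodendrocytes, 5 were called, all more positive, with a list median of 0.46. The fit without vehicle animal 1 called 1 of them and the fit without the animal block 2. Olig1, a transcription factor of the lineage, changed by 0.41 ± 0.08, Enpp6, a marker of newly formed oligodendrocytes, by 1.35 ± 0.26, C1ql1 by 0.83 ± 0.19 and Bcas1, another early myelinating cell gene, by 0.99 ± 0.22. The edgeR adjusted p-values of these 4 were 0.02, 0.0199, 0.0251 and 0.0241.

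Most pan-neuronal genes had a more negative region difference in HPBCD than in vehicle. Of 12 pan-neuronal genes tested, 11 passed, all more negative, beside 4.91% of all genes tested. The median region difference was -0.30 in vehicle, where 4 passed, and -0.98 in HPBCD, where all 12 passed (beside 8.74% and 26.9% of all genes). Map2 (0.06) and Celf4 (0.20) had positive differences in vehicle that did not pass. Snap25, a SNARE protein of synaptic vesicle fusion (chr2:136713453-136782428, plus strand), was at 2618, 2979, 1860, 2491 and 2690 CPM in vehicle peri-infarct and 4304, 5273, 4673, 4463 and 5158 CPM in vehicle contralateral libraries. In HPBCD it was at 1705, 1965, 1332, 1033 and 1873 CPM in peri-infarct and 6046, 5360, 5337, 5707 and 5968 CPM in contralateral tissue. Every contralateral library of HPBCD animals was above every contralateral library of vehicle animals, and the peri-infarct ranges overlapped only through vehicle animal 3. The interaction was -0.95 ± 0.20 (edgeR adjusted p = 0.0211). Nrgn, a postsynaptic calmodulin-binding protein, had per-animal differences of -0.80, -0.61, -1.10, -0.67 and -0.90 in vehicle and -1.78, -1.26, -1.57, -1.89 and -1.63 in HPBCD. Elavl4, a neuronal RNA-binding protein, changed by -1.16 ± 0.24 and Stmn2, a microtubule regulator of axons, by -0.91 ± 0.20. The list means of vehicle animals were -0.19, -0.13, -0.53, -0.41 and -0.35 and those of HPBCD animals -0.87, -0.81, -1.05, -1.54 and -0.89. No HPBCD animal overlapped the vehicle range, and called members numbered 2 (without vehicle animal 1 or 2 or HPBCD animal 3) to 12 when 1 animal was left out.

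Of 19 genes of synaptic vesicles and release, 11 were called, beside 4.91% of all genes, and none had a positive interaction. The median region difference was -0.23 in vehicle and -0.95 in HPBCD. Stx1a, the plasma membrane SNARE syntaxin, had per-animal differences of -0.03, -0.25, -0.78, -0.55 and -0.14 in vehicle and -1.02, -1.84, -1.31, -2.09 and -1.29 in HPBCD. Rims1, an active zone scaffold, changed by -1.04 ± 0.19 and Syn1, which tethers vesicles, by -0.85 ± 0.19. Called members numbered 2 to 15 when 1 animal was left out, lowest without vehicle animal 1 or 2 or HPBCD animal 3. Of 17 postsynaptic and glutamate receptor genes, 4 were called, all more negative: the AMPA receptor subunit Gria3 (-0.71), the scaffolds Homer1 (-0.66) and Dlgap1 (-0.85), and the NMDA receptor subunit Grin1 (-0.53). Their list median was -0.003 in vehicle and -0.57 in HPBCD, and 0 were called without vehicle animal 1 or 2 or HPBCD animal 3.

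Of 27 voltage-gated channel genes, 8 were called, all more negative, beside 4.91% of all genes, with a list median of -0.68, and 2 to 12 when 1 animal was left out. Kcnv1, a modulatory potassium channel subunit, changed by -0.83 ± 0.17, Scn1a, the sodium channel of fast-spiking interneurons, by -0.90 ± 0.20, Kcna2, an axonal potassium channel, by -0.85 ± 0.19, and Cacnb4, a calcium channel subunit, by -0.80 ± 0.16. Ina, Nefm and Nefl, intermediate filament genes of axons, were called of 4 tested (-0.79, -0.63 and -0.65). All 4 also passed the region test in vehicle as lower, beside 8.74% of all genes. Without vehicle animal 1 or 2 or HPBCD animal 3, 0 were called. Among 11 interneuron genes 2 were called, the neuropeptide gene Vip (-1.13 ± 0.27) and Gad1, which makes GABA (-0.57 ± 0.17), with 0 to 3 when 1 animal was left out. Nefm, Nefl, Grin1, Cacnb4 and Timp3, a protease inhibitor gene, have over 1000 exonic bases in common with a gene on the opposite strand, and as the strand setting of the counting is not given in the sources used here, their counts are uncertain. Shorter shared stretches make the counts of Fn1, Ermn, Bcas1, Bicc1, Ltbp2, Csf1r, Hexa, Lamp1, Psmb9, Cd9 and Ina uncertain for the same reason.

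The Syn1 promoter is shown for the synaptic genes, since its window holds the cAMP response element TGACGTCA, in capitals (RefSeq, GRCm38.p6, chrX:20920869-20921168, minus strand, 5′ to 3′).

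Syn1: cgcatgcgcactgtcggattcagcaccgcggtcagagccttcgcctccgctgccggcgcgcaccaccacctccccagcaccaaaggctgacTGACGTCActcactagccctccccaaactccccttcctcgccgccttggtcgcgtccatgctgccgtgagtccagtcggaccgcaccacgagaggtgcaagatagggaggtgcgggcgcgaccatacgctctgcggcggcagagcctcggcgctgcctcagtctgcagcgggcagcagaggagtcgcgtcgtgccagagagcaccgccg

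This element was present in 3.37% of the 12146 tested genes with a promoter (2.03% of all 27025 promoters), in 25 of 627 called more negative (3.99%) and in 11 of 759 called more positive (1.45%).

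Genes of cortical layers and thalamus differed among themselves. Of 11 cortical layer genes 5 were called, all more negative, with a list median of -0.77: Tbr1 (-1.33 ± 0.34) and Rorb (-0.77 ± 0.18), transcription factors of deep layers and of layer IV, Cux2 (-0.98 ± 0.24) of upper layers, and Lamp5 (-0.85 ± 0.21) among those with values here. Foxp2 (0.50) and Bcl11b (0.35), also transcription factors of deep layers, had positive interactions that missed the threshold (edgeR adjusted p = 0.358 and 0.477). The fits that left out 1 animal called 0 (without vehicle animal 1 or HPBCD animal 3) to 7 of them. Of 9 genes in the thalamic list, Slc17a6 and Rora (-0.55) were called more negative, and Plekhg1 (0.87) and Zic1 (2.05) more positive, and 2 to 5 members were called when 1 animal was left out. Zic1 is also expressed in meninges, and its per-animal differences were 1.04, -1.33, 1.59, 1.77 and 0.99 in vehicle and 2.55, 2.92, 2.49, 4.18 and 2.57 in HPBCD, with vehicle animal 2 lowest and HPBCD animal 4 highest, as for the fibroblast list.

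A share of the cholesterol synthesis genes had a more negative region difference in HPBCD than in vehicle. Neurons and glia make cholesterol locally, since lipoproteins do not cross the blood-brain barrier, and the transcription factor SREBP2 drives these genes when sterol in the membrane is low. Of 24 genes of the pathway tested, 8 were called, all more negative, beside 4.91% of all genes, and 1 (Ebp, a sterol isomerase) had a positive interaction. The median region difference was -0.20 in vehicle, where 8 passed, and -0.65 in HPBCD, where 21 passed. All of these were lower, beside 8.74% of all genes in vehicle and 26.9% in HPBCD. Hmgcs1, which makes HMG-CoA (chr13:119690379-119708260, plus strand), was at 311, 329, 322, 335 and 375 CPM in vehicle peri-infarct and 317, 359, 395, 456 and 439.9 CPM in vehicle contralateral tissue. In HPBCD it was at 264, 254, 234, 213 and 233 CPM in peri-infarct and 402, 456, 432, 404 and 427 CPM in contralateral tissue. All 5 HPBCD peri-infarct libraries were below all 5 vehicle peri-infarct libraries, and the contralateral libraries overlapped. The interaction was -0.60 ± 0.11 (edgeR adjusted p = 0.0192).

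Insig1, the sterol sensor that retains SREBP in the endoplasmic reticulum and is itself an SREBP target, had per-animal differences of -0.54, -0.57, -0.70, -0.44 and -0.60 in vehicle and -0.996, -1.16, -1.05, -1.17 and -1.41 in HPBCD, with an interaction of -0.58 ± 0.10. Cyp51, a sterol demethylase, changed by -0.50 ± 0.10 and Msmo1, the next oxidase of the pathway, by -0.43 ± 0.10. HPBCD minus vehicle, the list median was -0.47 (log2) in peri-infarct and -0.06 in contralateral tissue. Between 2 (without HPBCD animal 3) and 13 members were called when 1 animal was left out. Pan-neuronal genes had more negative interactions in the same animals, and their part in the cholesterol result was not tested.

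The Hmgcs1 promoter is shown as the only one among 17 cholesterol genes with a promoter that holds the sterol regulatory element TCACNCCAC, in capitals (RefSeq, GRCm38.p6, chr13:119690101-119690400, plus strand, 5′ to 3′).

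Hmgcs1: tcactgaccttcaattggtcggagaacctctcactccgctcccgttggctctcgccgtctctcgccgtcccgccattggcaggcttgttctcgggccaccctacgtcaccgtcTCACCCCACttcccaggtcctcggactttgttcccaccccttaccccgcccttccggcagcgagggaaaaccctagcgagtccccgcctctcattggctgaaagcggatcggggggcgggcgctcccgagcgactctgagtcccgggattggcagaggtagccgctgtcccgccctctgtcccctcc

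The element was found in 1.44% of the windows of the 12146 tested genes (1.44% of all 27025 promoters), in 3 of 627 genes called more negative (0.478%) and in 13 of 759 called more positive (1.71%).

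Of 13 genes of cholesterol efflux and of the sterol-activated receptor LXR tested, 2 were called, both more positive, and 11 had a positive interaction. Leaving out 1 animal gave 2 to 6 called members (most without vehicle animal 3). With all animals voom and DESeq2 called 6 and 6, beside 3021 and 2981 of all 16758 genes. The cholesterol transporter genes Abcg4 (-0.57, adjusted p = 0.0631) and Abca7 (-0.05, adjusted p = 0.816) had negative interactions that missed the threshold. The called genes were Srebf1, the SREBP1 gene that LXR induces, and Mylip, which degrades the LDL receptor. Srebf1 was at 97.3, 90.4, 152, 107 and 109.8 CPM in peri-infarct and 73.6, 67.8, 77.4, 52.5 and 68.8 CPM in contralateral tissue in vehicle. HPBCD animals had 155, 125, 169, 185 and 162 CPM in peri-infarct and 53.9, 56.4, 55.9, 61.5 and 51.7 CPM in contralateral tissue. Both regions overlapped between treatments, with HPBCD animals higher beside the infarct and mostly lower opposite. The difference went from 0.70 to 1.50 (interaction 0.80 ± 0.15, edgeR adjusted p = 0.0193). For Mylip the interaction was 1.01 ± 0.20. Abca1, the cholesterol efflux transporter, differed by 1.70 in vehicle and 2.80 in HPBCD, with an interaction that missed the threshold (edgeR adjusted p = 0.0591).

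**Figure D4:**
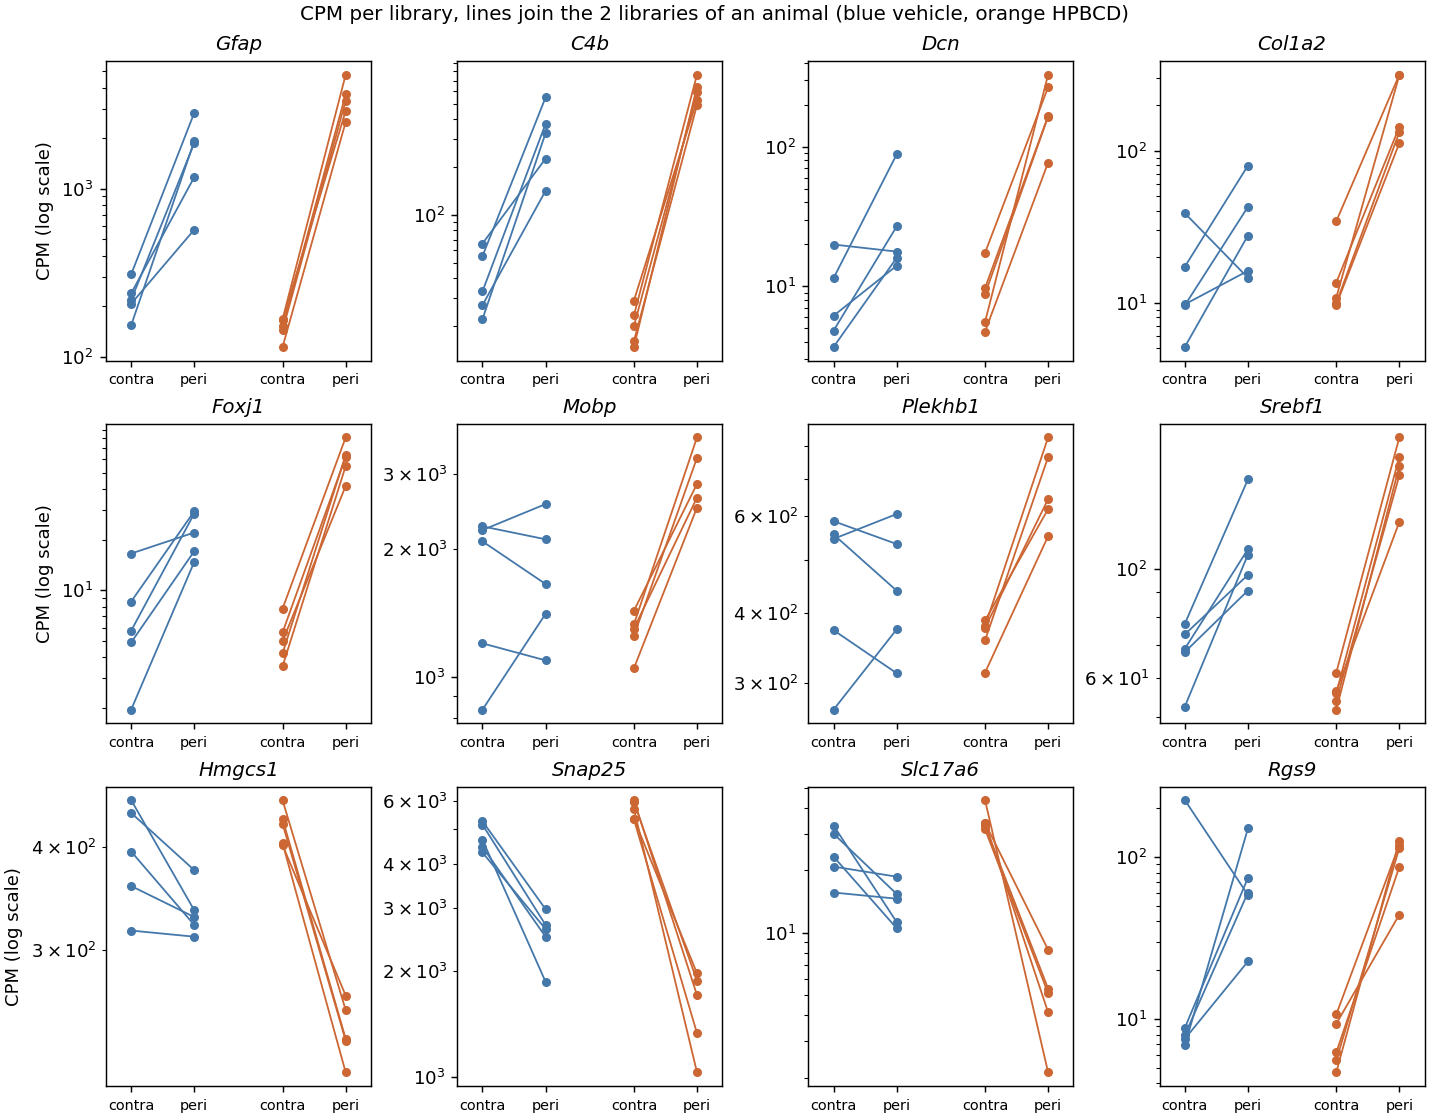
CPM of 12 genes in every library on a log axis, contralateral (contra) and peri-infarct (peri), with a line joining the 2 libraries of each animal; blue is vehicle and orange HPBCD. Lines are steeper in HPBCD for the called genes, Mobp and Plekhb1 rise in some vehicle animals and fall in others, and Rgs9, which was not called, shows the vehicle animal whose contralateral library held striatal RNA.

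Among 18 genes of lipid-laden and disease-associated microglia the region test called 16 higher beside the infarct in vehicle and all 18 in HPBCD (against 13% and 31.1% of all genes). The list had a median difference of 1.94 in vehicle and 3.35 in HPBCD, with 2 of 18 called (beside 10.9% of all genes), 17 positive and 9 at an unadjusted p under 0.05 (beside 30.7%). The called genes were the scavenger receptor Cd36 (2.35 ± 0.49) and the tetraspanin Cd9 (1.16 ± 0.34, edgeR adjusted p = 0.0496). Plin2, the coat of lipid droplets, differed by 1.09 in vehicle and 2.18 in HPBCD (edgeR adjusted p = 0.0502). Its 5 vehicle differences were 0.69, 0.10, 1.63, 2.08 and 0.85 and its 5 HPBCD differences 2.01, 1.93, 2.31, 2.58 and 1.96. Of 11 homeostatic microglia genes 0 were called by edgeR (6 at an unadjusted p under 0.05) and all 11 were positive. Leaving out 1 animal gave 1 to 7 called genes in the first list and 0 to 6 in the second, highest without vehicle animal 3. With all animals DESeq2 called 8 and 2, beside 2981 of all 16758 genes. Csf1r, the microglial growth factor receptor, differed by 1.21 and 1.68 in vehicle and HPBCD.

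Of 14 complement genes 2 were called, both more positive, and all 14 interactions were positive, with list medians of 1.74 in vehicle and 2.82 in HPBCD. DESeq2 called 9 of them, beside 2981 of all 16758 genes. C4b, a component of the classical pathway (chr17:34728380-34743882, minus strand), was at 226, 142, 548, 327 and 374 CPM in vehicle peri-infarct and 66.2, 27.2, 55.3, 22.2 and 33.1 CPM in vehicle contralateral libraries. The HPBCD values were 589.8, 491, 527, 762 and 639.9 CPM in peri-infarct and 20.03, 16.1, 28.98, 23.4 and 14.8 CPM in contralateral tissue. The peri-infarct and the contralateral ranges of the treatments each overlapped, and HPBCD ran higher beside the infarct and lower opposite. The interaction was 1.91 ± 0.37 (edgeR adjusted p = 0.0199). Among 13 antigen presentation genes the immunoproteasome subunit Psmb9 was called (1.43 ± 0.37). Of 17 chemokines and receptors, Cxcr4 and its ligand Cxcl12 (0.76 ± 0.18) were called. Interferon-stimulated genes gave 0 of 13 (3 at an unadjusted p under 0.05) and T lymphocyte genes 0 of 7 (2 unadjusted). In the B and plasma cell list 3 of 7 were called, Cd79a (3.44 ± 0.75), Cd79b (2.44 ± 0.65) and Sdc1 (1.36 ± 0.34), at low counts: the HPBCD contralateral libraries held 2, 3, 5, 1 and 5 counts of Cd79a and 1, 2, 0, 4 and 0 of Cd79b, at or near the floor of 3, so the fitted sizes are uncertain. In that list 6 of the 7 interactions were positive, Ighm was negative (-0.44), and Ighm, Jchain, Igkc and Blnk missed the threshold. Its median of 1.16 became -0.02 among genes with at least 10 counts in every library. Its peri-infarct sums overlapped, at 54.8 to 104 CPM in vehicle and 44.5 to 192 CPM in HPBCD. Leaving out 1 animal gave 2 to 7 called complement genes, 0 to 3 antigen presentation genes, 0 to 3 chemokines and receptors and 0 to 3 B and plasma cell genes.

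Of 23 lysosomal genes tested, 7 were called, all more positive, beside 6.02% of all genes, and 22 had a positive interaction, with list medians of 0.68 in vehicle and 1.47 in HPBCD. The membrane proteins Lamp1 and Lamp2 changed by 0.56 ± 0.15 and 0.70 ± 0.18, Hexa, a ganglioside-degrading hydrolase, by 0.86 ± 0.22, and Scarb2, the receptor for glucocerebrosidase, by 0.39 ± 0.11. Their edgeR adjusted p-values were 0.0382, 0.034, 0.0347 and 0.043. Called members ranged from 0 to 18 over the fits that left out 1 animal, with 0 without any of vehicle animals 1, 2 and 5 and HPBCD animals 3, 4 and 5. The fit without the animal block called 2, voom 18 and DESeq2 16.

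Matrix proteases and inhibitors had 5 of 15 called, all more positive, and 2 to 6 when 1 animal was left out. Mmp14, a membrane-bound collagenase, had per-animal differences of 1.19, 0.27, 1.51, 1.36 and 1.21 in vehicle and 2.32, 2.40, 2.70, 3.44 and 2.502 in HPBCD (interaction 1.56 ± 0.26, edgeR adjusted p = 0.0192). The aggrecanases Adamts1 and Adamts4 changed by 1.003 ± 0.18 and 0.77 ± 0.17, and Timp3, which inhibits matrix proteases, by 0.63 ± 0.17. In the TGF-beta list 2 of 15 were called, the co-receptor Tgfbr3 (1.17 ± 0.27) and Ltbp2 (3.99 ± 0.87), a matrix protein of elastic fibres with 11, 6, 4, 2 and 9 counts in the HPBCD contralateral libraries. Without vehicle animal 1 or HPBCD animal 3, 0 of the list were called.

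In 174 called genes the mean region difference had opposite signs in the 2 treatments, and in 3 of these the difference passed the region test in vehicle (0 passed in both treatments). By p-value the first 6 of at least 5 CPM were Plekhb1, Dbndd2, Gadd45b, Pde8a and Oxsr1, higher beside the infarct in HPBCD, and Dbpht2, lower. Plekhb1, a membrane protein with a pleckstrin homology domain, was at 439, 312, 533, 374 and 604 CPM in vehicle peri-infarct and 555, 373, 586, 268 and 545 CPM in vehicle contralateral libraries. In HPBCD it was at 617, 551, 643, 830.3 and 765 CPM in peri-infarct and 388, 313, 377, 379 and 358 CPM in contralateral tissue. Vehicle animals went both ways and all HPBCD animals were higher, so the difference was -0.02 in vehicle (adjusted p = 0.921) and 0.90 in HPBCD. The interactions were 0.92 for Plekhb1, 0.74 for Dbndd2, 0.80 for Gadd45b, a stress-induced gene of DNA demethylation, 0.88 for Pde8a, a cAMP phosphodiesterase, 0.59 for Oxsr1, a kinase of ion transport, and -0.67 for Dbpht2. None of the 6 passed the region test in vehicle.

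Of 89 nuclear genes of oxidative phosphorylation 0 were called by edgeR (9 at an unadjusted p under 0.05). Between regions 64 differed in vehicle and 75 in HPBCD (beside 21.7% and 58% of all genes), with list medians of -0.37 and -0.49. Mitochondrially encoded genes gave 0 of 9 (0 unadjusted). Of 25 glycolysis and TCA cycle genes, Pfkm and Pgam1, which act in glycolysis, were called more negative (-0.42 and -0.44). The count was 0 to 4 when 1 animal was left out, 6 with voom and 9 with DESeq2. Over all 16758 genes voom called 3021 and DESeq2 2981. Of 81 cytosolic ribosomal protein genes, Rpl10, whose count can share reads with near-identical pseudogenes, was called (0.46) and 76 were positive, with a list median of 0.21 that was 0.12 without HPBCD animal 4, and 0 to 5 members were called when 1 animal was left out. Of 12 immediate early genes Egr2 was called (1.33 ± 0.32), and its CPM was 1.60, 2.07, 3.66, 0.99 and 3.67 in HPBCD contralateral and 2.37, 3.71, 6.17, 14.4 and 10.98 in vehicle contralateral libraries, with peri-infarct values of 5.05, 4.77, 7.23, 9.17 and 11.02 and 3.73, 4.98, 6.28, 17.7 and 13.1. No immediate early gene was called without vehicle animal 1, 2 or 5 or HPBCD animal 5, and the list median of 0.08 changed sign in the GC and length correction and without vehicle animal 3 or HPBCD animal 5. Blood cell genes gave 0 of 4 (2 unadjusted) and proliferation genes 0 of 5 (1 unadjusted).

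Animals within a treatment differed in how far their lists moved. In the synaptic vesicle list the means were -0.01, -0.10, -0.50, -0.42 and -0.25 in vehicle animals 1 to 5 and -0.74, -0.70, -1.13, -1.70 and -0.85 in HPBCD animals 1 to 5, and in the complement list 1.40, 0.58, 2.47, 2.90 and 2.19 and 3.22, 2.77, 2.91, 4.02 and 3.18. Synaptic means did not overlap between treatments and were lowest in HPBCD animal 4, while complement in vehicle animal 4 lay within the HPBCD range. With vehicle animal 1 and HPBCD animal 4 both left out, edgeR called no member of any list, and the medians were 2.16 for fibroblasts and meninges, 2.52 for ependyma, 1.27 for reactive astrocytes, -0.49 for pan-neuronal, -0.50 for synaptic vesicle and -0.32 for cholesterol synthesis genes. With HPBCD animal 3 left out too, again no member was called, and the medians were 2.22, 2.45, 1.20, -0.42, -0.40 and -0.35 in the same order, beside 2.22, 2.14, 1.50, -0.62, -0.72 and -0.42 with all animals.

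**Figure D5:**
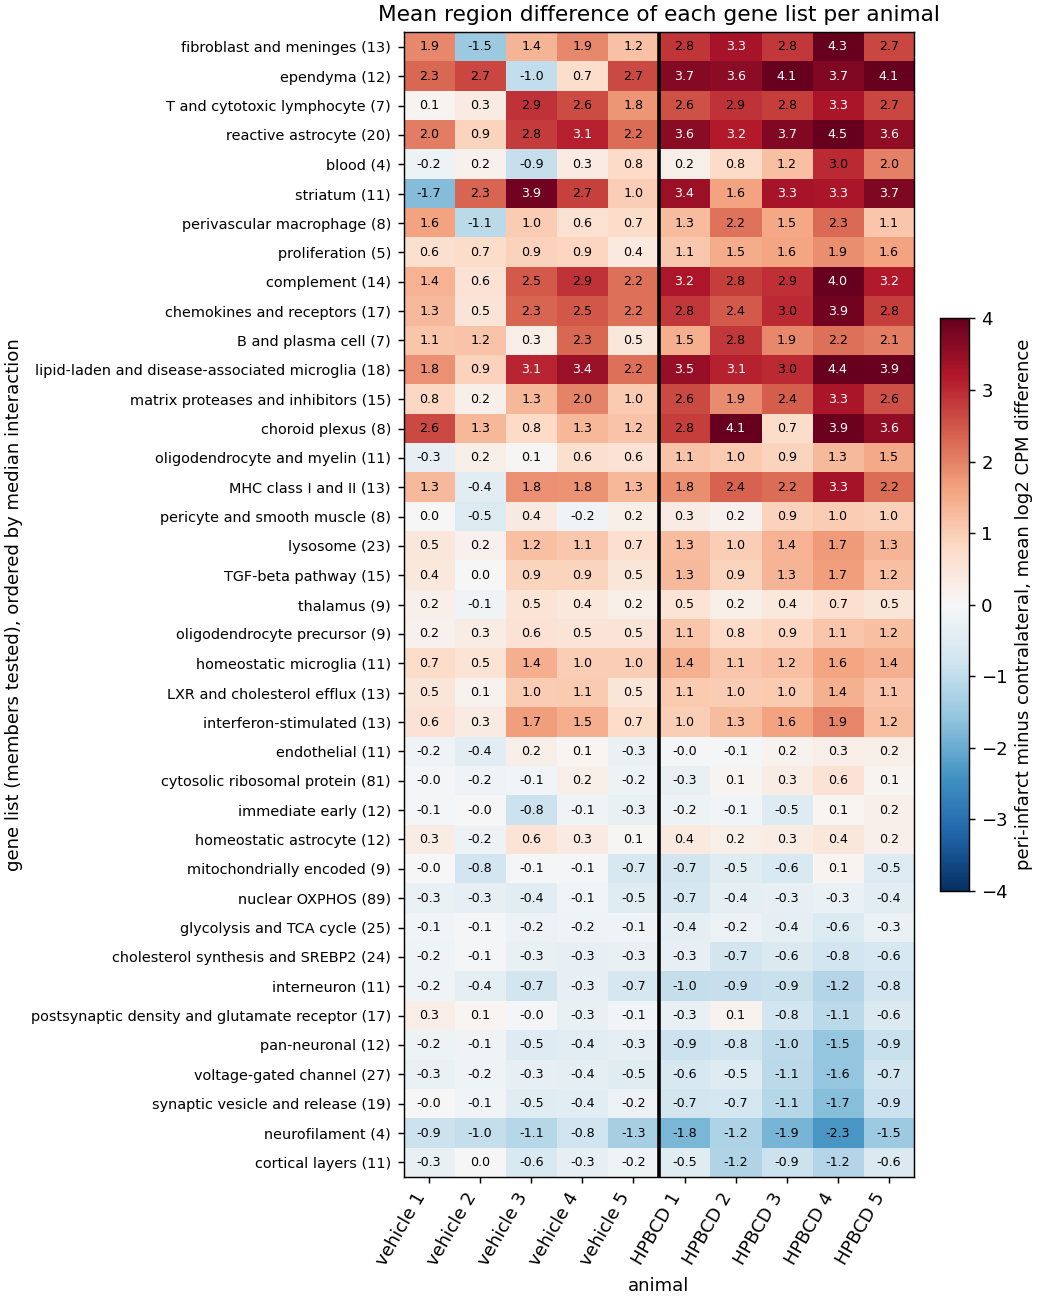
Mean peri-infarct minus contralateral log2 CPM difference of each of 39 gene lists (rows, number of tested members in parentheses, ordered by median interaction) in each of 10 animals (columns), red where higher and blue where lower beside the infarct. Fibroblast, ependymal and reactive astrocyte lists are among the deepest red in HPBCD animals, neurofilament, synaptic and neuronal lists among the bluest, and the striatal list is negative in vehicle animal 1 alone.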

How the data were processed

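The authors prepared stranded mRNA libraries. Per the labels and the submitters' processing notes, reads were trimmed with Trimmomatic 0.32, aligned to GRCm38 with STAR 2.5.2b and counted per Ensembl gene with HTSeq. The deposited values are raw counts. The annotation release and strand option are not given in the sources used here. Symbols came from GENCODE M21 for 45229 of 46078 genes. The closing summary lines of each table (reads in no gene or ambiguous, among others) entered neither library sizes nor tests, at 4.39% to 9.50% of read pairs in no gene and 3.94% to 8.03% ambiguous.

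Depth was 14445021 to 22171627 counts, and the floor of 3 counts was 0.135 to 0.208 CPM, covering counting error only. Both libraries of each of 10 animals share an identifier in the labels, so the numbers pair them. Correlations of paired residuals averaged 0.088 (-0.11 to 0.30). Counts were filtered with filterByExpr, scaled by TMM and fitted with edgeR 4.0.16 (quasi-likelihood, animal as block, residual df 8) in R 4.3.3, with Benjamini-Hochberg adjustment over 16758 genes at 0.05. CPM values are TMM-scaled, and per-animal differences used a prior count of 2. Errors of fold changes are SE. Exact permutation tests used scipy 1.17.1. Alternatives were limma 3.58.1, DESeq2 1.42.0, other scaling, filters, thinning, a GC and length correction, no block and left-out animals. The centred GC correction and leaving out 2 or 3 animals together were chosen after seeing the data. The fits were tested on simulated data, where false calls stayed below the nominal share with edgeR and limma and exceeded it with DESeq2, whose counts are to be read with that limit. Apart from the genes changed on purpose, the simulated counts had no region difference. They also had no animal effect or library with foreign tissue, so they do not give the error rates in these data.

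Genes were named by rule: the 10 most positive and 10 most negative interactions (called, at least 5 CPM, named symbol, no overlap of animals), the 5 smallest p-values, up to 4 members per list with the smallest p, and 6 called genes with opposite signs. Others, named for their role, were chosen after their values were seen. Some members of the lists are not reported here by name. Members and lists were chosen with earlier results of these data known. Promoters and motif matches, searched on both strands with no overlapping matches in those printed, came from RefSeq (GRCm38.p6).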

Additional observations from a re-analysis of the deposited data

Results flagged for a closer look

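The interaction itself differed between treatments for 1830 genes, and the extent of the region difference per animal by 0.193. Among single genes the difference between treatments passed the test for Lum (3.01), Cd109 (2.96), Thbs4 (2.91), Lrrn4cl (2.86), Cyp1b1 (2.73), Slc43a3 (2.72), Col3a1 (2.70), Dcn (2.67), Thbd (2.53) and Cxcr4 (2.52). It also passed, with the opposite sign, for Slc17a6 (-2.08), Igfn1 (-1.86), Plcxd2 (-1.70), Ankrd34c (-1.64), Dkkl1 (-1.50), Fam19a2 (-1.47), Car10 (-1.37), Ntng1 (-1.31), Pla2g4e (-1.26) and Emx1 (-1.22). These are log2 interactions from edgeR, and all were selected as the widest among called genes of at least 5 CPM whose animals did not overlap.

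Single animals lay far from the other 4 of their treatment in 11 of 228 groups examined (114 genes in each treatment). Independent groups not chosen by their values would give about 1 in 20, or 11.4. These genes were named partly by p-value or lack of overlap, so 11 cannot be weighed against 11.4. Vehicle animal 2 was low for Cyp1b1 (-1.33), Zic1 (-1.33) and Mmp14 (0.27) and high for Homer1 (0.14). Vehicle animal 3 was high for Cd79b (1.25) and low for Ina (-1.14). HPBCD animal 4 was high for Dcn (5.86) and Zic1 (4.18) and low for Ntng1 (-2.78). HPBCD animal 1 was highest, nearest to 0, for Hmgcs1 (-0.61), and HPBCD animal 2 was low for Srebf1 (1.14). All are log2 differences between regions within 1 animal.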

How the results depend on the processing

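With all 10 animals, the count of 1830 interaction genes became 3021 with limma voom and quality weights, 2981 with DESeq2, 2993 with the GC and length trend removed (2063 with the trend centred), and 0 against a minimum change of 2-fold. With vehicle animal 1 and HPBCD animal 4 both left out it was 0 with edgeR and 1 with limma on the differences, a fit with fewer animals, and 0 with HPBCD animal 3 left out as well. Leaving out 1 animal gave 392 to 2282. Other factors, filters, thinning and limma on the differences gave 1760 to 2116, and the fit without the replicate block 1577. Region genes called against 2-fold numbered 84 in vehicle and 1944 in HPBCD, and without 1 animal 1963 to 4115 and 8659 to 9740. In every fit that could test them the called genes kept their sign, except 1 of 1830 under the centred GC correction. Of 114 genes named with values 108 were called and none reversed. Without the block 27 lost the call (among them Mag, Ermn, Enpp6, Olig1, Cd36, Lamp2, Scarb2, Grin1, Nefm, Nefl, Vip, Egr2 and Rpl10), and with both or all 3 animals out or against 2-fold all 108 did by edgeR. The cause of these shifts was not tested. The extent gap kept its side of the threshold, at 0.147 to 0.234 (0.38 as the SD over genes), except at 0.137 with vehicle animal 1 and HPBCD animals 3 and 4 left out, where the design cannot reach it. Genes near the floor of 3 counts carry little information on the size of their change.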

Other observations

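The same lists can be read within a region, HPBCD minus vehicle. In peri-infarct tissue the median log2 difference between treatments was 2.21 for fibroblast and meningeal genes, 1.49 for ependymal genes, 1.27 for reactive astrocyte genes, 0.68 for myelin genes, -0.62 for pan-neuronal genes and -0.70 for synaptic vesicle genes. In contralateral tissue the medians were 0.08, -0.43, -0.13, -0.19, 0.09 and 0.04 in the same order. These within-region medians were not tested. In contralateral tissue the treatments overlapped for all members of these lists but Snap25, which is in both the pan-neuronal and the synaptic vesicle list.

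Motifs were also counted in promoters of genes called in each direction. The AP-1 motif TGANTCA was present in 8.30% of 759 promoters of genes called more positive and 6.38% of 627 promoters of genes called more negative, beside 6.34% of the 12146 tested and 8.97% of all 27025 promoters. The X-box, which ciliary regulators bind, was in 0 of 759 and 1 of 627.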
